A study of Mus musculus with 10 samples.

Results

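Schwann cells and their myelin were read in brown adipose tissue (BAT) through 8 genes, Mbp, Pmp22, Mag, Prx, Cnp, Sox10, Egr2 and Dhh. The genes were matched by symbol in the deposited annotation and joined by Entrez identifier to the count file of each library. They are 8 of 24454 genes listed, and 8 of the 13568 genes left after the filter on low counts. They were chosen by the level of such genes and their difference between control and Stat5Adipoq in these same libraries, so that this difference is given as a description and nothing is concluded from it.

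RNA-Seq was run on BAT of 2-month-old male mice on a C57BL/6N background that ate a standard diet ad libitum. The sample labels name every library basal. The 5 control libraries came from Stat5 floxed littermates without Cre according to the methods, although the sample labels name them wild type, and the 5 Stat5Adipoq libraries came from mice in which Adipoq-Cre removed the Stat5a and Stat5b alleles. Adipoq-Cre acts in adipocytes, so Schwann cells of both genotypes carry unrecombined Stat5 alleles by design. The methods speak of 5 replicates per genotype, and the labels do not say more about their source, so p-values measure the spread between these libraries, which may in part be technical.

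BAT is entered by bundles of nerve fibres that follow the blood vessels and bring sympathetic input to the brown adipocytes. Schwann cells cover these fibres. A myelinating Schwann cell wraps a single large axon in a compact sheath of membrane, whereas non-myelinating Schwann cells hold many thin axons, among them most sympathetic fibres, without myelin. SOX10 sets Schwann cell identity at all stages, EGR2 (also called KROX20) is switched on by axon contact and drives the myelin genes, and Desert hedgehog, the product of Dhh, is secreted by Schwann cells to organise the nerve sheath. Pmp22 and Mbp encode proteins of compact myelin, Mag and Cnp proteins of its non-compact parts, and Prx encodes periaxin, which ties the outside of the sheath to the basal lamina.

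The sequence upstream of the start site is shown for Mag, Prx and Dhh, the 3 genes with the largest fold between the genotypes. The RefSeq table for GRCm38.p6 held starts for 6 of the 8 genes, all except Mbp and Sox10. Each line gives 220 bases, 5′ to 3′ on the strand of the gene, that end 30 bases short of the start. The start is the one held in that table, which for Prx and Dhh lies inside the gene span given below. The stretches are chr7:30914953-30915172 (minus strand) for Mag, chr7:27499074-27499293 (plus strand) for Prx and chr15:98898571-98898790 (minus strand) for Dhh, and no annotated exon lies in them. Capitals mark matches to the motifs named next, on either strand.
Mag: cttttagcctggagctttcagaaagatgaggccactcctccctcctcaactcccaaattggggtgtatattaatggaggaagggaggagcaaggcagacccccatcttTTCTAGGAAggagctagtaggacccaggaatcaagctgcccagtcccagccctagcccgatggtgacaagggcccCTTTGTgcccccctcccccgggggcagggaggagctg
Prx: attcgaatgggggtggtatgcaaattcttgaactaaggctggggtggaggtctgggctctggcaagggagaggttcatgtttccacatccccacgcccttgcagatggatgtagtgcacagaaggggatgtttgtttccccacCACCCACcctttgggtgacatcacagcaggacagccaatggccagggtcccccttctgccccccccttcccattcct
Dhh: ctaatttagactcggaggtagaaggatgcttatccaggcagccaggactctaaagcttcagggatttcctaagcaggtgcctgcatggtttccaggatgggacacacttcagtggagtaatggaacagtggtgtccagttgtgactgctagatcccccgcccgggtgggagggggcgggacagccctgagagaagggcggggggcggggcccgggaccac
The 250 bases before each start were searched for the SOX motifs ACAAAG and ACAATG, the EGR motifs GTGGGCG and GTGGGTG, and the STAT5 motif TTCNNNGAA, none of which overlap in the lines shown. The Mag line holds ACAAAG at 67 to 62 bases (-67 to -62) and TTCNNNGAA at -142 to -134 from the start, the Prx line holds GTGGGTG at -107 to -101, and the Dhh line holds none of the 5 motifs. Of 32851 windows in the table, 16.5% held ACAAAG, 10.7% ACAATG, 7.02% GTGGGCG, 7.36% GTGGGTG and 7.02% TTCNNNGAA. The 6 genes in the table had 15 windows, since some have several starts, such as Mag with 3. Of these 15 windows, ACAAAG was found in 3 (Mag and Cnp) and ACAATG in 0. GTGGGCG was found in 1 (Egr2), GTGGGTG in 1 (Prx) and TTCNNNGAA in 2 (Mag). These matches describe the letters only.

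Libraries held 8.49 to 19.5 M counts on genes, and control replicate 4 was the deepest. The deleted genes were low in each Stat5Adipoq library: Stat5a was 105 ± 17.0 CPM (counts per M, SD, n = 5) in control and 17.1 ± 2.05 CPM in Stat5Adipoq BAT, and Stat5b was 83.8 ± 5.51 and 21.8 ± 0.723 CPM. The 10 brown adipocyte markers summed to 19208 to 30141 CPM in control and to 21050 to 26457 CPM in Stat5Adipoq libraries, against 139 to 374 and 124 to 198 CPM for the 8 Schwann cell and myelin genes. Mbp, Mag and Cnp are also made by oligodendrocytes of the central nervous system. Of 10 oligodendrocyte genes, Mobp, Opalin, Olig2 and Nkx2-2 were listed at 0 in all libraries, where 3 counts, the limit that a count of 0 allows, equal 0.154 to 0.353 CPM. Mog, Cldn11, Hapln2 and Ermn had at most 2 counts in a library. Olig1 and Myrf passed the filter. Olig1 was at 0.498 ± 0.326 CPM in control and at 1.41 ± 0.150 CPM in Stat5Adipoq libraries, higher in each of the latter (log2 fold change 1.51, SE 0.38, edgeR adjusted p = 0.0596, DESeq2 adjusted p = 0.0108), and Myrf was at 0.911 ± 0.243 and 0.963 ± 0.310 CPM.

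Levels between genes were compared as CPM per kilobase of exon (mean over the 10 libraries). Pmp22 was the highest at 32.0, followed by Mbp at 9.73, Cnp at 3.67, Prx at 1.75, Sox10 at 0.838, Egr2 at 0.340, Dhh at 0.309 and Mag at 0.223 CPM per kilobase. Pmp22 stood apart, with all 10 libraries above any library of Mbp. Mbp was above Cnp, Cnp above Prx and Sox10 above Egr2 in 10 of 10 libraries each, although their ranges overlapped. Prx was above Sox10 in 5 of 10 libraries and Egr2 above Dhh in 6 of 10, so over all libraries these neighbours did not differ beyond their spread. By genotype, the means of Prx and Sox10 were 2.74 and 1.05 in control and 0.748 and 0.629 in Stat5Adipoq libraries. Those of Egr2 and Dhh were 0.436 and 0.472 in control and 0.243 and 0.145 in Stat5Adipoq libraries. The order is that of the whole tissue, since Pmp22 and Cnp are also made by cells outside nerve.

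The compact myelin gene Mbp lies on chromosome 18 (82475091 to 82585637 in GRCm38, as are all positions here). Its level was 59.5, 110, 74.7, 151 and 75.3 CPM in control replicates 1 to 5, and 83.7, 67.3, 60.2, 71.8 and 70.4 CPM in Stat5Adipoq replicates 1 to 5. The control libraries ran from below all Stat5Adipoq libraries (replicate 1) to far above them (replicate 4), and the Stat5Adipoq libraries lay close together. Stat5Adipoq against control gave a log2 fold change of -0.42 (SE 0.21). Pmp22, on chromosome 11 (63128982 to 63159547), encodes a tetraspan protein of compact myelin that many other cells make too. It was at 65.7, 95.7, 79.5, 140.2 and 74.9 CPM in control and at 80.7, 64.4, 48.7, 55.6 and 49.0 CPM in Stat5Adipoq libraries. Replicate 4 was again the highest control, and 4 of 5 Stat5Adipoq libraries lay below every control, with replicate 1 above 3 of them, and the log2 fold change was -0.62 (SE 0.20).

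Mag encodes myelin-associated glycoprotein, a lectin of the membrane that faces the axon, on chromosome 7 (30899175 to 30914922). It had few reads, 1, 18, 10, 63 and 9 counts in the control and 17, 1, 2, 2 and 3 counts in the Stat5Adipoq libraries. In CPM this was 0.0957 in control replicate 1 and 0.822 to 3.18 in the other controls, against 1.43 in Stat5Adipoq replicate 1 and 0.0641 to 0.240 in the others. So 1 library of each genotype sat at the level of the other genotype, and the log2 fold change was -1.76 (SE 0.78).

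Prx repeated this pattern with more reads. The gene lies on chromosome 7 as well (27499305 to 27520041), and its product periaxin is found in myelinating Schwann cells. Control replicates 1 to 5 had 1.34, 21.4, 9.26, 37.9 and 6.58 CPM, a 28.3-fold span from the lowest to the highest. Stat5Adipoq replicates 1 to 5 had 12.7, 2.56, 1.29, 1.87 and 2.48 CPM. Control replicate 1 fell within the range of the low Stat5Adipoq libraries, and Stat5Adipoq replicate 1 exceeded 3 of the 5 controls. The log2 fold change was -1.90 (SE 0.76), the largest of the 8.

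Cnp encodes CNPase, an enzyme of the non-compact myelin, on chromosome 11 (100574909 to 100591875). Its control libraries held 7.95, 16.7, 9.86, 29.3 and 14.3 CPM, and its Stat5Adipoq libraries 15.3, 9.62, 10.2, 10.03 and 10.2 CPM. Apart from replicate 1 the Stat5Adipoq libraries were nearly equal, inside the control range, and their log2 fold change was -0.52 (SE 0.30).

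**Figure D1:**
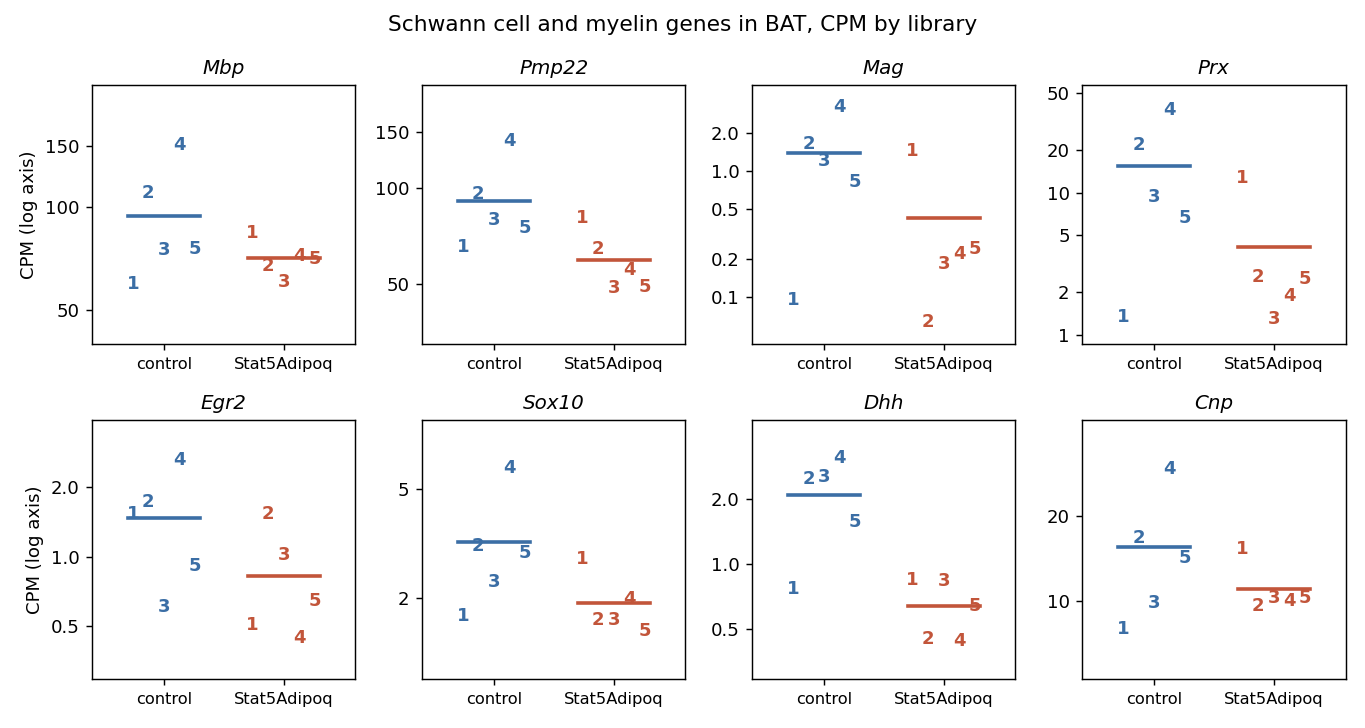
Counts per M (log axis) of the 8 Schwann cell and myelin genes in each library, with the replicate number as the symbol, control in blue and Stat5Adipoq in red, and a bar at the mean of the 5 libraries. Control replicate 4 is the highest of all 10 libraries in 8 of 8 genes, and the genotypes overlap in each gene.

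Of the regulators, Sox10, on chromosome 15 (79154913 to 79164490), was at 1.72, 3.09, 2.28, 5.97 and 2.92 CPM in control and at 2.77, 1.67, 1.66, 1.98 and 1.52 CPM in Stat5Adipoq libraries. All 5 Stat5Adipoq libraries were below the control median of 2.92 CPM, and control replicates 2, 4 and 5 were above all of them. The log2 fold change was -0.78 (SE 0.32). Egr2, on chromosome 10 (67534469 to 67542188), had 1.53, 1.72, 0.601, 2.63 and 0.914 CPM in control and 0.503, 1.54, 1.02, 0.441 and 0.639 CPM in Stat5Adipoq libraries, from 4 to 52 counts. Its order of libraries was not that of the others, with control replicate 3 the lowest control and Stat5Adipoq replicate 2 the highest of its genotype. Its log2 fold change was -0.84 (SE 0.43).

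Dhh, the ligand of the list, lies on chromosome 15 (98881615 to 98898562). It was at 0.766, 2.45, 2.53, 3.08 and 1.55 CPM in control and at 0.838, 0.449, 0.831, 0.441 and 0.639 CPM in Stat5Adipoq libraries. Of the controls, 4 of 5 lay above all Stat5Adipoq libraries, and only replicate 1 fell among them. The means were 2.08 ± 0.915 in control and 0.640 ± 0.195 CPM in Stat5Adipoq BAT (SD, n = 5), or -1.70 in log2 fold change (SE 0.37). The Stat5Adipoq values rested on 4 to 10 counts per library. Of its exon bases, 12.4% are shared in GENCODE with Rhebl1 on the same strand and 25.2% with Gm49442 on the other strand, so reads there are uncertain. Rhebl1 itself was 1.08 ± 0.348 CPM in control and 1.10 ± 0.168 CPM in Stat5Adipoq libraries, a log2 fold change of 0.01 (SE 0.27).

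The log2 fold change was below 0 for 8 of 8 genes, with a median of -0.81, where 50.8% of all tested genes were below 0 with a median of -0.0028. In the edgeR quasi-likelihood fit (Benjamini-Hochberg over all tested genes), 1 of the 8, Dhh, was called lower at an adjusted p of 0.0299 and 0 were called higher. Of all tested genes, 2.71% were called, 1.31% lower. DESeq2 called 2, Dhh and Pmp22, and 4.86% of all tested genes. At an unadjusted p under 0.05 there were 5 of 8, against 15.2% of all genes. The genotypes did not separate without overlap in any of the 8, while 4.39% of all genes did so, 2.04% as lower. Since this contrast was in view when the genes were picked, these shares describe them and are no evidence of a change. The call of Dhh was lost without control replicate 2 or 4 or without Stat5Adipoq replicate 2, 3, 4 or 5 (edgeR adjusted p from 0.0645 to 0.0838). In bulk tissue, fewer Schwann cells and less of each RNA per Schwann cell cannot be told apart.

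The sign held in each of 10 fits with 1 library left out, but the size turned on single libraries. Without control replicate 4 the log2 fold change shrank to -0.14 for Cnp, -0.18 for Mbp, -0.39 for Sox10, -0.40 for Pmp22, -0.50 for Egr2, -1.12 for Mag and -1.20 for Prx. Without Stat5Adipoq replicate 1 it grew to -2.90 for Prx and -3.03 for Mag. When both ends of the control range, replicates 1 and 4, were left out, the values were -0.29 for Mbp, -0.31 for Cnp, -0.36 for Egr2, -0.48 for Pmp22, -0.54 for Sox10, -1.51 for Mag, -1.57 for Prx and -1.75 for Dhh (edgeR adjusted p = 0.0336 for Dhh).

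**Figure D2:**
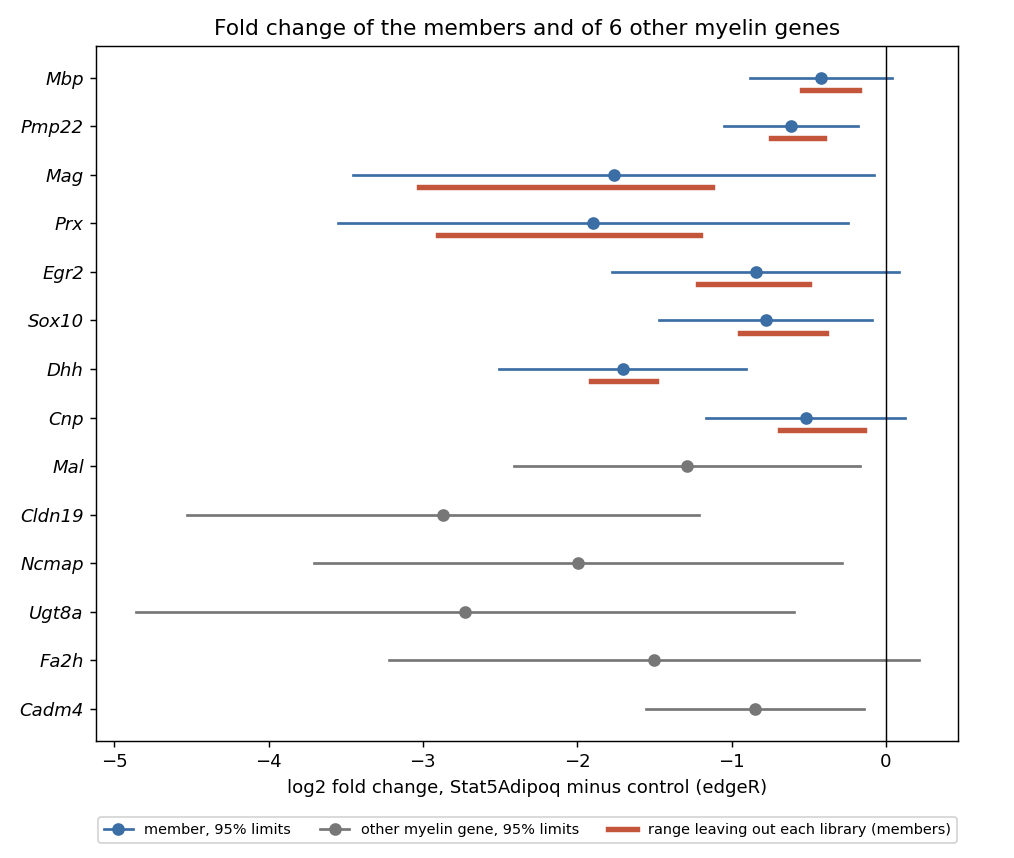
Log2 fold change of Stat5Adipoq against control (edgeR) with 95% limits for the 8 genes (blue) and for 6 further myelin genes (grey), and the range of the estimate when each library is left out in turn (red, first 8 only). Estimates for the first 8 run from -1.90 (Prx) to -0.42 (Mbp), and those for Mag and Prx move most when a library is left out.

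Most of these genes moved together between libraries of the same genotype. Log2 CPM of each gene was centred on the mean of its genotype and correlated over the 10 libraries for the 28 pairs. The median Pearson r was 0.84 and the range -0.09 to 0.97, with 21 of 28 pairs above 0.5. It was 0.88 over the 5 control and 0.72 over the 5 Stat5Adipoq libraries, and the median Spearman rho was 0.62. The closest pair was Sox10 and Cnp (r = 0.97), and Mag and Prx followed (r = 0.95). The points share a library, its depth and its scaling, and without control replicates 1 and 4 the median r was 0.66.

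**Figure D3:**
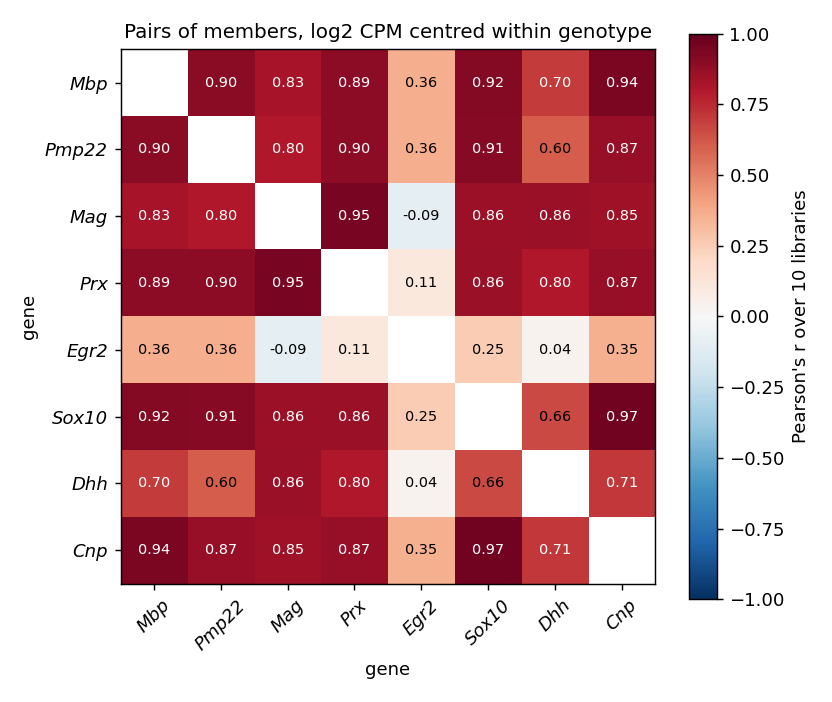
Pearson's r of log2 CPM, centred within genotype, for each pair of the 8 genes over 10 libraries (colour scale -1 to 1). Egr2 stands apart, with r from -0.09 to 0.36, and the other pairs lie between 0.60 and 0.97.

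A score per library, named nerve score here, was the mean over the 8 genes of the centred log2 CPM divided by its SD. The name is only a label, since the score measures these 8 genes and not the amount of nerve. Median r with it was 0.93 for other myelin membrane and lipid genes, 0.77 for fibroblast genes and 0.42 for axon and sympathetic neuron genes. The score was -1.43, 0.54, -0.42, 1.69 and -0.38 in control replicates 1 to 5 and 0.87, -0.09, -0.22, -0.31 and -0.26 in Stat5Adipoq replicates 1 to 5. Control replicate 1 was the lowest control in 7 of 8 genes (all but Egr2), and Stat5Adipoq replicate 1 the highest of its genotype in 7 of 8 (again all but Egr2). The score followed the log2 of the total count with Pearson r = 0.64 and Spearman rho = 0.71 over the 10 libraries, and with r = 0.18 without control replicates 1 and 4. The part of depth or dissection in the score was not tested.

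Each gene was set against the mean of the other 7. Cnp (r = 0.95), Mbp (0.95), Sox10 (0.93), Prx (0.92), Pmp22 (0.91) and Mag (0.85) followed it, and kept r from 0.76 to 0.92 without the 2 control libraries at the ends. Dhh had r = 0.72, which was 0.34 without them. Egr2 had r = 0.21, and -0.05 without them. The libraries left then still held Stat5Adipoq replicate 1. Its score of 0.87 stood apart from -0.31 to -0.09 in the others of its genotype. What r would be without this library as well was not tested. Egr2 is also an immediate-early gene, induced within minutes in many cells, and its r with the 8 other immediate-early genes ran from 0.23 (Egr1) to 0.71 (Egr3). Without control replicates 1 and 4 it ran from 0.0022 (Atf3) to 0.95 (Egr3). The summed level of these 8 genes ran from 67.5 to 742 CPM in control and from 42.7 to 513 CPM in Stat5Adipoq libraries, and their part in the values of Egr2 was not tested.

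All genes with a mean of at least 20 counts, 11574 besides the 8, were ranked by Pearson r with the nerve score. The 15 closest had r from 0.92 to 0.99, and the median of all was -0.02. Those named here were Plekha4 (0.99), Mal (0.97), Cd9 (0.97), Gpm6b (0.97), Dusp15 (0.95), Kif1a (0.94), Cadm4 (0.94), Itgb4 (0.93), Gatm (0.93), Gas7 (0.93), Kcna1 (0.93), Cldn19 (0.92), Rfx2 (0.92) and Lgi4 (0.92). Mal, Cadm4 and Cldn19 are on the list of myelin membrane and lipid genes. Mal encodes a raft protein of myelin, Cadm4 an adhesion molecule that binds the axon, Cldn19 a claudin that seals the sheath, Itgb4 the integrin subunit of the abaxonal surface and Lgi4 a Schwann cell signal for axonal sorting. Of the 15, 14 had a log2 fold change below 0, where 50.8% of all tested genes did. At an adjusted p under 0.05 edgeR called 0 of the 15, against 2.71% of all tested genes. DESeq2 called 2 (Dusp15 and Cldn19), against 4.86%. Rfx2 was the exception at 0.14. The likeness was computed from the same libraries and says nothing of shared control.

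**Figure D4:**
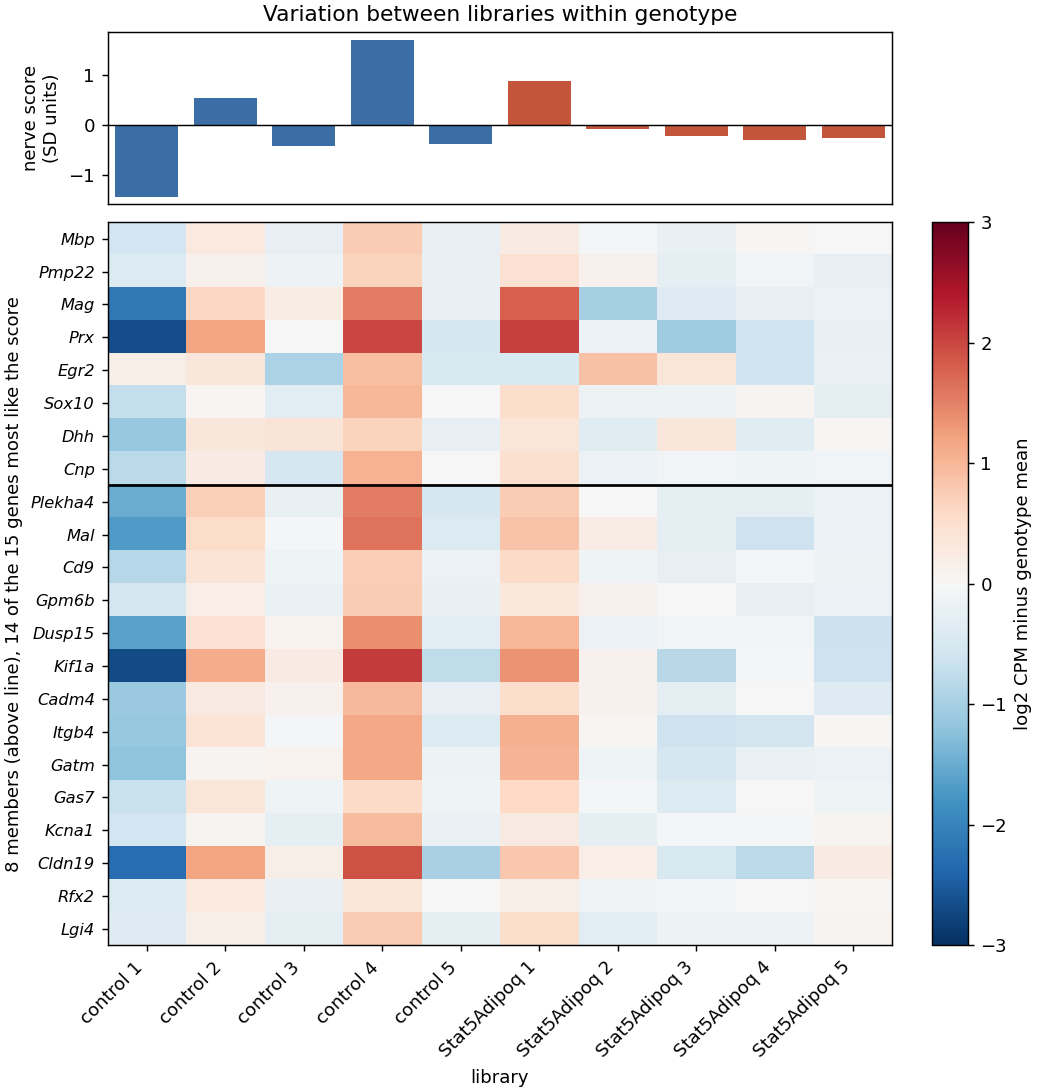
The nerve score of each library (upper panel, in units of SD) and log2 CPM minus the mean of the genotype (lower panel, colour scale -3 to 3) for the 8 genes above the line and 14 of the 15 genes most like the score below it. Control replicate 1 (-1.43) is low and control replicate 4 (1.69) and Stat5Adipoq replicate 1 (0.87) are high in most rows, and Egr2 departs from this.

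The other genes of myelin membrane and lipid, 11 in number, formed the list most like the 8. After the filter 8 were left, and Pmp2, Gjb1 and Gal3st1, at means of 1.6, 2.8 and 3.9 counts, were not. The filter keeps a gene by its summed counts, so a gene read mainly in control replicate 4 could pass through that library alone. Cldn19 was at 0.191, 3.81, 1.80, 6.47 and 0.731 CPM in control and at 0.671, 0.385, 0.185, 0.110 and 0.399 CPM in Stat5Adipoq libraries. Control replicate 1 lay among the Stat5Adipoq libraries, and the other controls lay above all of them. For Cldn19 the log2 fold change was -2.87 (SE 0.76), and for Cadm4 it was -0.85 (SE 0.33). All 8 of the tested genes had a log2 fold change below 0 with a median of -1.75, where 50.8% of all tested genes were below 0. At an adjusted p under 0.05 edgeR called 0 of the 8, against 2.71% of all tested genes. At an unadjusted p under 0.05 there were 7, against 15.2%. In each of the 8, control replicate 4 was the highest control, and r with the nerve score lay between 0.89 and 0.98. The 8 genes thus moved together, and these counts are not of independent genes.

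Over all 9 nerve lists, 62 of 95 genes were tested, 4 were called higher and 0 lower by edgeR, against 1.40% of all tested genes called higher and 1.31% lower, and their median log2 fold change was -0.11. Without Stat5Adipoq replicate 3 or 4 the 4 became 2. DESeq2 called 7, against 4.86% of all tested genes. Of these 7, S100b, Cdh2, Cdon and Mpp6 were higher and Scn7a, Lamb1 and Cldn19 lower. S100b, a calcium binding protein of Schwann cells that brown adipocytes also make, rose from 62.4 ± 11.1 to 131 ± 14.3 CPM (SD over 5 libraries), or by 1.07 in log2 (SE 0.12, edgeR adjusted p = 0.000849). Each Stat5Adipoq library, from 109 to 148 CPM, was above each control, from 45.9 to 70.3 CPM. Cdh2, or N-cadherin, rose from 34.6 ± 3.36 to 61.5 ± 8.48 CPM (log2 fold change 0.83, SE 0.10, edgeR adjusted p = 0.00127). Both calls held with each library left out. Their r with the nerve score was 0.50 for S100b and 0.16 for Cdh2, and -0.19 and 0.50 without control replicates 1 and 4. Which cells of the tissue held the RNA of the 4 genes called higher was not tested, so their rises are not assigned to Schwann cells.

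S100b and Cdh2 are on the list of non-myelinating and immature Schwann cells, of which 8 of 10 genes were tested. Of these, edgeR called 2 higher and 0 lower, and the median log2 fold change was -0.13. On the same list Ngfr, the low affinity neurotrophin receptor, was at 3.90 ± 1.94 and 2.41 ± 0.490 CPM and had r = -0.10 with the score, and the sodium channel gene Scn7a was at 39.7 ± 3.97 and 25.7 ± 7.71 CPM (log2 fold change -0.63, SE 0.16, edgeR adjusted p = 0.0662, r = 0.36). Scn7a was called lower by DESeq2 (adjusted p = 0.00581), by limma-voom (0.0367), with the replicate block (0.0418) and, in edgeR, without control replicate 3 (0.0417) or Stat5Adipoq replicate 1 (0.00287). The median r with the score was 0.93 for the myelin membrane and lipid list, 0.57 for node and paranode genes, 0.43 for this list, 0.42 for axon and sympathetic neuron genes, 0.35 for perineurium and endoneurium genes, 0.21 for neuregulin and axon contact genes, 0.20 for basal lamina and dystroglycan genes, 0.09 for transcription regulators and 0.02 for hedgehog genes, and 6.94% of the 11574 genes had r above 0.5. Such values turned in part on control replicates 1 and 4. Without them, and with Stat5Adipoq replicate 1 still in, r of the summed level went from 0.97 to 0.98 for the myelin membrane and lipid list. It went from 0.56 to -0.05 for node and paranode genes and from 0.02 to 0.54 for hedgehog genes.

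On the hedgehog list, the pathway through which Dhh acts, 10 of 13 genes were tested. Cdon, a co-receptor of hedgehog ligands, rose from 29.6 ± 3.77 to 41.9 ± 4.48 CPM (log2 fold change 0.50, SE 0.10, edgeR adjusted p = 0.0201), and 0 genes of the list were called lower. The call of Cdon was lost without control replicate 4 or without Stat5Adipoq replicate 3, 4 or 5 (edgeR adjusted p up to 0.0619), with the replicate block (0.0776) and without control replicates 1 and 4 (0.116). The receptor Ptch1 was at 18.7 ± 4.35 and 17.7 ± 2.24 CPM, and Gli1, a target that reports the pathway, at 2.19 ± 0.772 and 1.42 ± 0.427 CPM (log2 fold change -0.62, SE 0.29, edgeR adjusted p = 0.345). The co-receptor Gas1 had a log2 fold change of 0.37 and the inhibitor Sufu of -0.09, and neither was called. Shh was listed at 0 in all libraries.

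Of the node and paranode genes 5 of 6 were tested. Mpp6, a scaffold protein, rose from 23.2 ± 2.00 to 30.2 ± 2.64 CPM (log2 fold change 0.37, SE 0.08, edgeR adjusted p = 0.0289), and 0 genes of the list were called lower. The call of Mpp6 was lost without control replicate 1, 2 or 5 or without Stat5Adipoq replicate 1, 3 or 4 (edgeR adjusted p up to 0.0888), with library size only (0.0566) and without control replicates 1 and 4 (0.0516). Cntnap1 had a log2 fold change of -0.02 and Gldn, or gliomedin, of 1.37 (SE 0.54, edgeR adjusted p = 0.243). Nfasc, or neurofascin, was at 2.02 ± 2.06 and 0.533 ± 0.674 CPM and had r = 0.88 with the score.

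In the remaining nerve lists edgeR called 0 genes. Of 10 basal lamina and dystroglycan genes, the most abundant, Dag1, Itgb1 and Lamc1, had log2 fold changes of 0.03, 0.05 and -0.01, whereas Drp2, the partner of periaxin at the sheath surface, was at 8.31 ± 7.92 and 1.51 ± 1.83 CPM (log2 fold change -2.46, SE 0.81, edgeR adjusted p = 0.151) and had r = 0.89 with the score. Lamb1, a laminin chain, was at 219.7 ± 18.3 and 178 ± 16.7 CPM, with each Stat5Adipoq library below each control (log2 fold change -0.30, SE 0.08, edgeR adjusted p = 0.0607), and was called lower by DESeq2 (adjusted p = 0.00768) and with the replicate block (0.0421). Of the transcription regulators 5 of 10 were tested, with Jun at 0.30, Nab1 at -0.13 and Yy1 at -0.02 in log2 fold change. Sox9, which is on the perineurium and endoneurium list, was at 0.519 ± 0.234 and 1.25 ± 0.290 CPM, also without overlap (log2 fold change 1.21, SE 0.33, edgeR adjusted p = 0.0842). Of the neuregulin and axon contact genes 7 of 8 were tested, with Bace1 at 0.02, Adam17 at 0.01 and Lgi4 at -0.66, and Nrg1 was listed at 0 in all libraries. The receptor gene Erbb3 was at 6.18 ± 1.65 and 5.46 ± 0.476 CPM and had r = 0.21 with the score. Of 19 axon and sympathetic neuron genes 3 passed the filter, Stmn2 (0.40), Slc18a2 (-0.14) and Slc6a2 (-0.74), and Th, Npy, Scg2 and Tac1 were listed at 0. The cell bodies of sympathetic neurons lie outside BAT. Of the perineurium and endoneurium genes 6 of 8 were tested, with Mpzl2 at 0.03, Slc2a1 at 0.03 and Cldn1, a claudin of the perineurium, at -0.47 with r = 0.78.

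Fibroblast genes were high in the same libraries. All 8 fibroblast genes had r above 0.5, with a median of 0.77. Their summed level was 1040 to 2045 CPM in control (replicate 1 the lowest and replicate 4 the highest) and 1022 to 1996 CPM in Stat5Adipoq libraries (replicate 1 the highest), with 0 called and a median log2 fold change of -0.19. Of 10 macrophage genes 5 had r above 0.5, and they summed to 175 to 234 CPM in control and 148 to 195 CPM in Stat5Adipoq libraries, with control replicate 4 the highest and replicate 5 the lowest control, and Stat5Adipoq replicate 4 the highest of its genotype. The macrophage sum had r = 0.56 with the score, and 0.12 without control replicates 1 and 4. For the fibroblast sum these values were 0.84 and 0.77, the latter with Stat5Adipoq replicate 1 still in. The 12 skeletal muscle genes had r from -0.48 to -0.25, and summed to 5.36 to 4089 CPM in control, with replicate 3 the highest, and 2.82 to 46.9 CPM in Stat5Adipoq libraries. The part of these cells in the levels of the 8 genes was not tested.

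Cnp shares its stretch of chromosome 11 with the deleted genes, 188856 bases from Stat5b and 267476 bases from Stat5a. Of 18 tested genes within 300000 bases of it, 2 were called, and these were Stat5a and Stat5b. Its neighbour Dnajc7, which overlaps 4.23% of the exon bases of Cnp on the other strand, was at 147 ± 12.1 and 149 ± 8.83 CPM, a log2 fold change of 0.02 (SE 0.07). Of the exon bases of Prx, 5.38% are shared with Gm15541 on the other strand.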

How the data were processed

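RNA-Seq libraries were made from BAT with a stranded mRNA kit and read as single reads of 50 bases. The authors aligned them to GRCm38 with STAR 2.5.0b and counted reads over exons with featureCounts 1.5.0-p1. The deposited values are counts per gene, not normalized. Whether counting used the strand is not given in the sources used here. Fold changes and p-values in the deposited comparison table were not used, and that table served only to pair symbols with Entrez identifiers.

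Genes were kept where the sum of counts over libraries, divided by DESeq2 size factors, was above 45, as in the study. Groups and replicate numbers came from the sample labels. Genotypes were compared with edgeR 4.0.16 (quasi-likelihood F test, TMM, no covariate, Benjamini-Hochberg over 13568 genes, threshold 0.05), with R 4.3.3, in place of the DESeq2 1.16.1 of the study. Tested on simulated counts for 13568 genes of this comparison, the fit found 98% of the genes made to differ, with 2.49% false among its calls. The genes made to differ were all well read and were given a large fold change. These shares therefore do not apply to genes with few counts, such as Mag, Egr2, Dhh and Sox10, or to small fold changes. Correlations used log2 CPM with a prior count of 2. Lengths are exon unions of GENCODE and were known for 96.5% of tested genes. Promoter sequences are from RefSeq. With 8.49 to 19.5 M counts per library, genes with few counts such as Mag had wide limits. No pair of libraries differed by sampling noise alone.

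The genes and lists were chosen with earlier results of these data known. The text names the 8 genes, Stat5a and Stat5b, called genes and up to 3 of highest CPM per kilobase of each nerve list, the 15 genes most like the score, and genes that overlap or neighbour the 8. Lists of other cells are given as sums. Other genes were named after their values were seen. Alternatives were DESeq2 1.42.0, limma-voom (limma 3.58.1), other scalings, filters and prior counts, a block for the replicate number, and each library left out. Leaving out control replicates 1 and 4 together was chosen after the data were seen. A few genes are left out of the text and figures.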

Additional observations from a re-analysis of the deposited data

Results flagged for a closer look

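Among 26 groups of 5 libraries examined, 4 held a library far from the other 4, where chance would give about 1.3 if the groups were independent. They are not, since the nerve score is made from Prx, Cnp and the other chosen genes, which move together. No excess over chance is read from this count. Prx was at 12.7 CPM in Stat5Adipoq replicate 1 and at 1.29 to 2.56 CPM in the other Stat5Adipoq libraries. Cnp was at 15.3 CPM in the same library and at 9.62 to 10.2 CPM in the others. The nerve score of that library was 0.87, and -0.31 to -0.09 in the others. The total count of control replicate 4 was 19.5 M, against 8.49 to 10.9 M in the other controls. The library with the highest nerve score was thus also the deepest, while Stat5Adipoq replicate 1, with 11.7 M counts, was at the median depth of its genotype.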

How the results depend on the processing

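Over all genes 368 were called by edgeR, and 660 by DESeq2, 118 without control replicates 1 and 4, and 185 to 442 with each library left out. Over the 9 nerve lists 4 were called, and 7 by DESeq2, 2 without control replicates 1 and 4, and 2 to 5 with each library left out. Other scalings, filters and limma-voom kept both counts within 1.5 times. The 8 genes kept their sign under each alternative, except that Mag and Dhh did not pass the filter of edgeR's filterByExpr and have no value there. The call of Dhh was also lost with limma-voom (adjusted p = 0.0658), and Pmp22 was called by DESeq2 alone (adjusted p = 0.0375). Genes with a fold change near 0 changed sign. Cntnap1 was at 0.0552, Yy1 at 0.00944 and Mpzl2 at -0.00617 without control replicates 1 and 4, and Adam17 at -0.00940 with library size only. With each library left out, the log2 fold change ran from -0.0514 to 0.0277 for Cntnap1, -0.0444 to 0.0211 for Lamc1, -0.0770 to 0.0289 for Yy1, -0.0359 to 0.0737 for Bace1, -0.0394 to 0.0616 for Adam17, -0.000977 to 0.0707 for Mpzl2, -0.0367 to 0.154 for Slc2a1 and -0.0553 to 0.178 for Myrf. The cause was not tested. The median r of the pairs ran from 0.74 to 0.88 with each library left out.

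The labels tie same-numbered libraries of the genotypes by the number alone. Their deviations correlated between -0.23 and 0.09, and 2 of 5 were closest to their own number. Such correlations cannot decide whether they shared a litter or a batch, which was not tested. With the replicate block 273 genes and 5 nerve list genes were called, Dhh and Cdon were not (adjusted p = 0.0965 and 0.0776), Scn7a and Lamb1 were, and the median r of the pairs was 0.91. Depth limited Mag, Egr2 and Dhh most, with as few as 1, 4 and 4 counts in a library.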
